A study of Mus musculus with 2 samples.

Results

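Nr4a1, Nr4a2 and Nr4a3, the genes of the Nr4a orphan nuclear receptors, were taken by symbol from the adrenal gland tables, which made 3 of 55536 annotated genes. Total RNA was measured in adrenal gland of adult male mice, 8 to 10 months old, of a cross that the labels call 5xFAD X Cast and 5xFAD/CAST. 5xFAD mice carry transgenes for human amyloid precursor protein and presenilin 1 with familial Alzheimer mutations, driven by the neuronal Thy1 promoter, and CAST mice are an inbred strain founded from wild mice. The labels give no further genotype, no treatment and no other strain, so the series held 1 group of 2 libraries, biological replicates 2 and 1. Each library came from its own biosample and both list 1 donor entry, so whether their spread is that between animals is not known, and reads from CAST alleles were assigned with the mm10 reference too. The depth over annotated genes was 26322473 counts for replicate 2 and 29204658 counts for replicate 1.

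Nr4a receptors are transcription factors without a known physiological ligand. Their ligand pocket is filled by bulky side chains, so their activity follows mainly from how much of the protein is made and how it is modified. The genes respond within minutes to cAMP, calcium and growth factor signals, and in the adrenal cortex corticotropin and angiotensin II induce them. The proteins bind an extended hormone response element as monomers, Nr4a1 and Nr4a2 also pair with retinoid X receptors, and in cell studies they act on promoters of steroidogenic enzymes. Nr4a2 is also known for its role in midbrain dopamine neurons, where it controls tyrosine hydroxylase.

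The 3 genes lie on different chromosomes and read alike where their proteins contact DNA. The segments are the 90 coding bases from the leading transcript of each gene that run through the recognition helix of the DNA-binding domain, from GENCODE M21 on GRCm38 (mm10). Capitals mark bases identical in all 3 genes, and each segment is joined across an intron of the genomic span named after it (chr15:101270913-101271768, plus strand, for Nr4a1, chr2:57110734-57111632, minus strand, for Nr4a2 and chr4:48052145-48055962, plus strand, for Nr4a3).
Nr4a1: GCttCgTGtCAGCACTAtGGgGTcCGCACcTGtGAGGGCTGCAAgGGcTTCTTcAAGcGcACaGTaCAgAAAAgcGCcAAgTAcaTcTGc
Nr4a2: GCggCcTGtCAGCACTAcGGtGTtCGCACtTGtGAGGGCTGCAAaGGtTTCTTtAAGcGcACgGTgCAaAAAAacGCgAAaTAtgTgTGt
Nr4a3: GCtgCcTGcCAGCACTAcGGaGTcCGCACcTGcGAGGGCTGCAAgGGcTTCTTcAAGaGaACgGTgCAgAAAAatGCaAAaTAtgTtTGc
All 3 genes had the same base at 65 of these 90 positions, and Nr4a2 and Nr4a3 were the most alike pair, with 74 identical bases. The longest run of identical bases shared by any transcripts of different members was 27 bases, between Nr4a2 and Nr4a3, 24 bases between Nr4a1 and Nr4a3 and 14 bases between Nr4a1 and Nr4a2. Reads much longer than such a run can therefore be assigned to 1 member.

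Around their starts, the 3 genes each held 4 cAMP response element cores. RefSeq promoter windows on GRCm38.p6 were searched over the 250 bases before the gene start, on both strands, for the core TGACG, to which CREB family factors bind, and the palindrome TGACGTCA was counted as 2 cores. Among the 32851 windows of this length searched, 45 held 4 or more, the 3 included (0.137%), and 17.8% held at least 1. The windows of Nr4a1 (chr15:101266596-101266845, plus strand) and Nr4a2 (chr2:57124004-57124253, minus strand) are shown whole, with the cores in capitals. That of Nr4a3 is shown by 30 bases (chr4:48045067-48045096, plus strand) that lie before every GENCODE exon of the gene and hold 2 of its 4 cores.
Nr4a1: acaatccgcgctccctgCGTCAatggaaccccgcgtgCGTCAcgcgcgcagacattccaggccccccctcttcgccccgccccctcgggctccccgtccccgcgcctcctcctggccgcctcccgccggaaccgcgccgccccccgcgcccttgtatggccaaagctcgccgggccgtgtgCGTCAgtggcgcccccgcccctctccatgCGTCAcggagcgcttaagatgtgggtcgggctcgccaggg
Nr4a2: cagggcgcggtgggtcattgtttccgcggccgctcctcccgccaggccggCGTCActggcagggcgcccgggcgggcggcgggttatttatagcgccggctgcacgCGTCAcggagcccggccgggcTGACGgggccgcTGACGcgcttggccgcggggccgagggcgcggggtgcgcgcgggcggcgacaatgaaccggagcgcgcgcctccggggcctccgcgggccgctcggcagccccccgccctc
Nr4a3: aggagggTGACGtagcgtcccatgtCGTCA
None of the 3 windows held the full palindrome TGACGTCA, which 1.55% of windows held, nor the Nr4a monomer element AAAGGTCA, which 1.34% held. All 4 cores of Nr4a1 stood within the AP-1-like letters TGCGTCA, a search added after the windows had been read. That motif occurred 4 times in the Nr4a1 window and in no other window as often, and 1.75% of windows held it at least once. The Nr4a1 window ended at the base before the start of its leading transcript, whereas the Nr4a2 window ended 8965 bases upstream of the start of the leading Nr4a2 transcript. The RefSeq start of Nr4a3 lies 152 bases inside the first exon of its leading transcript, so 98 bases of its window lay before that exon, with 3 of the 4 cores, and 152 bases inside it, with 1. A match is only a description of the letters, and binding was not measured.

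Nr4a1 was the most abundant member in both libraries, Nr4a3 came next and Nr4a2 was low. Levels are in TPM, the share of a transcript among all transcripts, a unit that corrects for transcript length and depth. Nr4a1 (ENSMUSG00000023034.7, chr15:101254269-101274795, plus strand) was at 58.8 TPM in replicate 2 and 64.6 TPM in replicate 1, a mean of 61.7 ± 4.11 TPM (SD, n = 2). Scaled over genes outside small structural RNA, which takes a large share of the TPM, the means would be 143 TPM for Nr4a1, 36.8 TPM for Nr4a3 and 5.23 TPM for Nr4a2. Nr4a3 (ENSMUSG00000028341.9, chr4:48045153-48086447, plus strand) was at 15.2 TPM in replicate 2 and 16.7 TPM in replicate 1, a mean of 15.9 ± 1.05 TPM. Nr4a2 (ENSMUSG00000026826.13, chr2:57106830-57124003, minus strand) was at 2.33 TPM in replicate 2 and 2.20 TPM in replicate 1, a mean of 2.27 ± 0.0919 TPM. The values of the 3 genes did not overlap between libraries, so their order was the same in each.

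All 3 members passed the detection limit of 1 TPM in both libraries, which 25.5% of all annotated genes and 56.2% of protein-coding genes did. Of the protein-coding genes, 95.7% were lower than Nr4a1 by mean TPM, 76.9% lower than Nr4a3 and 48.8% lower than Nr4a2. In the gene table Nr4a1 stood at 3.87 times Nr4a3 in replicate 2 and 3.88 times in replicate 1. In the second quantifier, a separate transcript table made directly from the reads, it stood at 3.55 times in replicate 2 and 4.48 times in replicate 1. Nr4a3 stood at 6.52 times Nr4a2 in replicate 2 and 7.58 times in replicate 1. Nr4a1 made up 77.0% of the summed Nr4a TPM in replicate 2 and 77.4% in replicate 1. These shares and ratios count all Nr4a1 transcripts. The short entries described below, Nr4a1-203 and Nr4a1-204, held 4.43% of the Nr4a1 TPM in replicate 2 and 44.9% in replicate 1. Without them Nr4a1 stood at 3.70 times Nr4a3 in replicate 2 and 2.14 times in replicate 1. In whole tissue, fewer cells of a type and less RNA per cell cannot be told apart.

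The second quantifier gave the same order of members. It put Nr4a1 at 48.7 TPM in replicate 2 and 73.8 TPM in replicate 1, a wider spread than in the gene table. Nr4a3 was at 13.7 TPM in replicate 2 and 16.5 TPM in replicate 1 there. Nr4a2 was at 2.26 TPM in replicate 2 and 2.14 TPM in replicate 1. Averaged over both libraries, none of the 3 members was 25% higher or 20% lower in the gene table than in the second quantifier, against 22.5% of 15872 genes.

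**Figure D1:**
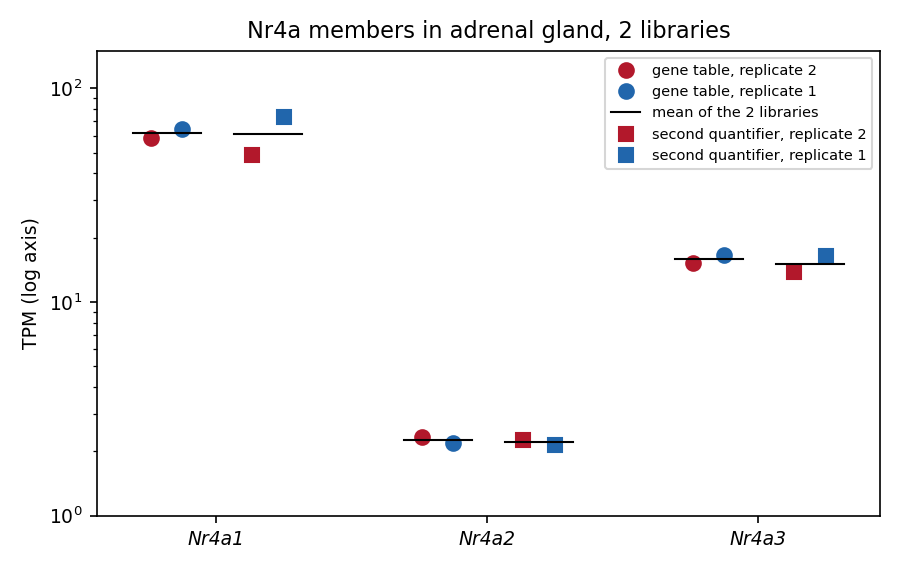
TPM of each Nr4a gene on a log axis in replicate 2 (red) and replicate 1 (blue), from the gene table (circles) and the second quantifier (squares), with a line at the mean of the 2 libraries. Nr4a1 is highest, Nr4a3 next and Nr4a2 lowest in both libraries and both tables, and the widest pair is Nr4a1 in the second quantifier, at 48.7 and 73.8 TPM.

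The libraries ranked Nr4a1 in opposite order depending on the unit. Its expected count was 3451 in replicate 2 and 2854 in replicate 1, although replicate 2 was the shallower library. Scaled by depth, the count ratio of replicate 2 over replicate 1 was 0.42 ± 0.04 on the log2 scale (counting error only). The ratio of the TPM values was -0.14. With counts scaled by library totals, the count ratio was also 0.42, and the TPM ratio less this count ratio was -0.56. Of 16356 genes that averaged at least 20 counts, 154 had a difference as low or lower (0.942%), and in 2.71% the ratio in TPM fell at least 20% short of that in counts. TPM divides the count by an effective length averaged over the transcripts of the gene. For Nr4a1 that length was 2293 bases in replicate 2 and 1542 bases in replicate 1.

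By counts, 1 of the 3 members, Nr4a1, was at least 25% higher in replicate 2, against 8.32% of 16380 genes, and none was at least 20% lower, against 10.9%. Nr4a1 did not reach the 25% limit in counts of the second quantifier, at a log2 ratio of 0.20, nor with spike-in totals, at 0.32. None passed 1.5-fold in either direction, which 6.7% of genes did. Nr4a3 had 2008 counts in replicate 2 and 2353 counts in replicate 1, a log2 ratio of -0.09 ± 0.04. Nr4a2 had 172 counts in replicate 2 and 214 counts in replicate 1, a log2 ratio of -0.17 ± 0.15, close to its counting error. With 1 library on each side no ratio has a test. Over 19827 genes the chi-square of the counts was 8.91 per degree of freedom, so the libraries differed by more than sampling noise.

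The units of Nr4a1 parted at the level of its transcripts, of which the annotation holds 4. Nr4a1-201 (2477 bases, 7 exons) and Nr4a1-202 (2553 bases, starting upstream at base 101254269) carry the same coding sequence of 1803 bases. Nr4a1-203 is a 344-base fragment with an incomplete 3′ end, which holds a 176-base exon at chr15:101268928-101269103 inside the first intron of Nr4a1-201. Nr4a1-204 (893 bases) is annotated as a retained intron: it holds 654 of the 802 bases of the last intron, chr15:101273194-101273995.

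The boundary that Nr4a1-204 reads through is given by the last 30 exon bases and the first 120 intron bases (chr15:101273164-101273313, plus strand, GRCm38), with the first 2 bases of the intron in capitals, where splicing cuts the full-length transcripts.
Nr4a1-204: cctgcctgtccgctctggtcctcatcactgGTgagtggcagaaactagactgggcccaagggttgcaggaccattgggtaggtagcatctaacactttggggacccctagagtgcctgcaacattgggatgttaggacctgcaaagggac

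Nr4a1-204 had 22.5 counts in replicate 2 and 317 counts in replicate 1. The deposited posterior SDs of these counts were 1.71 in replicate 2 and 4.88 in replicate 1. Its log2 ratio was -3.62 ± 0.31, or 12.3-fold lower in replicate 2. In the second quantifier Nr4a1-204 had 22.0 counts in replicate 2 and 360 counts in replicate 1, 14.5-fold lower in replicate 2. Nr4a1-203 had 9.33 counts in replicate 2 and 105 counts in replicate 1, a log2 ratio of -3.34 ± 0.49. In the second quantifier it had 10.0 counts in replicate 2 and 128 counts in replicate 1. Both short entries were thus low in replicate 2 in each table, and each holds bases that the spliced full-length transcripts lack.

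The full-length transcripts went the other way. Nr4a1-201 and Nr4a1-202 together had 3419 counts in replicate 2 and 2432 counts in replicate 1, a log2 ratio of 0.63 ± 0.04, 1.55-fold higher in replicate 2. In TPM they stood at 56.2 in replicate 2 and 35.6 in replicate 1, so counts and TPM ranked the libraries alike once the short entries were set aside. On this scale they stood at 3.70 times Nr4a3 in replicate 2 and 2.14 times in replicate 1. The second quantifier gave 3513 counts in replicate 2 and 2910 counts in replicate 1 for the same pair, 1.33-fold higher in replicate 2. The 2 short entries together held 4.43% of the Nr4a1 TPM in replicate 2 and 44.9% in replicate 1. Of the Nr4a1 counts they held only 0.923% in replicate 2 and 14.8% in replicate 1.

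How the full-length counts divide between Nr4a1-201 and Nr4a1-202 depended on the table. The transcript table gave Nr4a1-201 3407 counts in replicate 2 and 2254 counts in replicate 1. It gave Nr4a1-202 12.4 counts in replicate 2 and 178 counts in replicate 1. The second quantifier gave Nr4a1-201 1747 counts in replicate 2 and 2318 counts in replicate 1, and it gave Nr4a1-202 1766 counts in replicate 2 and 593 counts in replicate 1. The 2 tables thus rank the libraries in opposite order for each of these transcripts, which differ only in their 5′ exons, and no use of the upstream start is read from them.

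**Figure D2:**
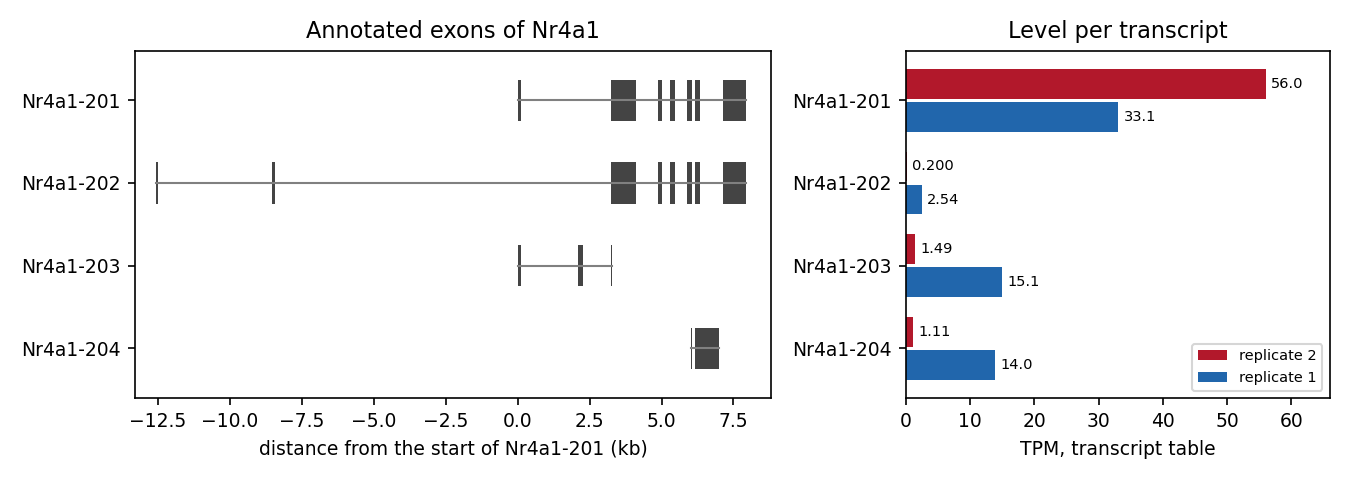
Left, exons (boxes) of the 4 annotated Nr4a1 transcripts by distance in kb from the start of Nr4a1-201. Right, TPM of each transcript in replicate 2 (red) and replicate 1 (blue): Nr4a1-201 is at 56.0 and 33.1, Nr4a1-203 at 1.49 and 15.1, and Nr4a1-204 at 1.11 and 14.0.

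The intron signal of Nr4a1 stood far from most retained introns in these libraries, which did not shift as a class. Over 10614 retained-intron transcripts that averaged at least 20 counts the median log2 ratio was 0.004, and they held 4.58% of all transcript counts in replicate 2 and 4.54% in replicate 1. Past 4-fold, 1.15% of them were lower in replicate 2 and 0.952% higher, and 55 were as low as Nr4a1-204 or lower. Most of these 55 had 0 counts in replicate 2, so they reached the mean of 20 counts only through replicate 1. Among transcripts of all types, 920 of 43882 were as low or lower. In the second quantifier, 106 of 11136 retained-intron transcripts were as low or lower. Among the 2742 that averaged at least 100 counts in both tables, a limit chosen after the values were seen, 3 were 4-fold lower in replicate 2 in both. These were Nr4a1-204, Scarb1-211 and Pck2-210. All 3 reached the limit of 100 counts only through replicate 1, where they were high. Their number is therefore no measure of how rare such a difference is. How many of the 2742 were 4-fold higher was not counted. Scarb1, the receptor that takes up cholesterol from high-density lipoprotein, had 62.0 counts of its transcript in replicate 2 and 390 in replicate 1. Pck2-210 had 0 counts in replicate 2 and 220 in replicate 1.

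**Figure D3:**
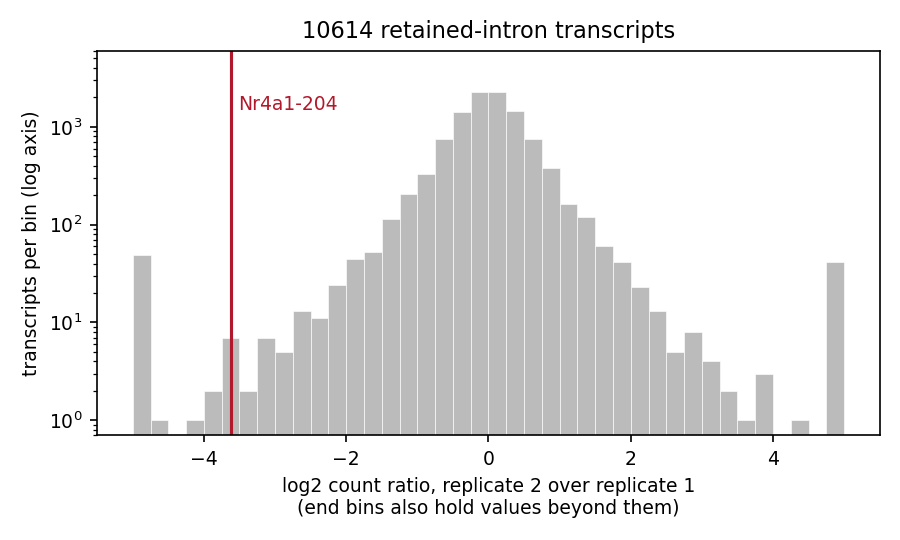
Histogram of the log2 count ratio, replicate 2 over replicate 1, of 10614 retained-intron transcripts in bins of 0.25, with a log axis for the number of transcripts. Most lie near 0, and the red line marks Nr4a1-204 at -3.62.

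Transcripts of the other members were also divided unevenly between the libraries. Nr4a3-201 (5720 bases) had 1568 counts in replicate 2 and 1540 counts in replicate 1. Nr4a3-203 (5068 bases), annotated with an incomplete 5′ end from base 48049114, had 420 counts in replicate 2 and 776 counts in replicate 1, a log2 ratio of -0.74 ± 0.09. Nr4a3-203 therefore made 21.8% of the Nr4a3 TPM in replicate 2 and 32.7% in replicate 1, and in the second quantifier its ratio was -0.59. The posterior SDs of these counts were 105 in replicate 2 and 120 in replicate 1, wider than counting error, and the deposited TPM intervals of the libraries overlapped. The short noncoding Nr4a3-204 had 20.1 counts in replicate 2 and 37.9 in replicate 1, and Nr4a3-202 had 0 counts in both libraries but 10.0 and 56.9 in replicates 2 and 1 of the second quantifier.

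Nr4a2 was spread over more transcripts at low counts. Nr4a2-201, which starts at base 57115038, had 63.4 counts in replicate 2 and 140 counts in replicate 1, a log2 ratio of -1.0 ± 0.22. Nr4a2-206, annotated as a target of nonsense-mediated decay and starting at the RefSeq start at base 57124003, had 42.6 counts in replicate 2 and 11.7 counts in replicate 1, a log2 ratio of 1.94 ± 0.46. The second quantifier gave ratios of -1.49 for Nr4a2-201 and 1.90 for Nr4a2-206, so both tables gave the same signs. The posterior SDs were 21.6 in replicate 2 and 26.6 in replicate 1 for Nr4a2-201, and 14.2 in replicate 2 and 10.3 in replicate 1 for Nr4a2-206, and the deposited TPM intervals of the libraries overlapped for both. Nr4a2-203, from the same upstream start, had 45.3 counts in replicate 2 and 62.0 in replicate 1. Nr4a2-202 had 12.8 counts and Nr4a2-205 had 7.97 counts in replicate 2, and both had 0 in replicate 1. Nr4a2-204 had 0 counts in both libraries. For comparison, 13.8% of 43882 transcripts were 1.5-fold lower in replicate 2 and 13.1% were 1.5-fold higher.

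Among 49 nuclear receptor genes, 37 were detected, and Nr4a1 ranked 3rd by mean TPM in both libraries. Only Nr5a1, the receptor SF-1 that directs steroidogenic cell identity, at 136 ± 14.6 TPM, and Nr1d1, the clock repressor REV-ERBα, at 70.9 ± 1.28 TPM, stood above it. Nr2f2, at 49.5 ± 5.32 TPM, was just below, and in the gene table the libraries of Nr4a1 overlapped with those of neither neighbour. In the second quantifier they overlapped with both: Nr1d1 was at 62.6 TPM in replicate 2 and 66.6 TPM in replicate 1 there, and Nr2f2 at 57.9 and 52.3 TPM in replicates 2 and 1. The full-length Nr4a1 transcripts alone would rank 3rd in replicate 2 and 6th in replicate 1. Nr4a3 ranked 16th, between the retinoid X receptor gene Rxra at 17.2 TPM and the retinoic acid receptor gene Rarg at 15.0 TPM. It was below Rxra in both libraries, and its values overlapped with those of Rarg. Nr4a2 ranked 35th, its values overlapping with those of Ppara at 2.51 TPM just above and not with those of Nr0b1, the SF-1 repressor DAX-1, at 1.35 TPM just below. The 12 not detected were Rxrg, Rorb, Pgr, Esrrb, Esr2, Nr1i3, Hnf4a, Hnf4g, Nr2e1, Nr2e3, Nr1i2 and Nr1h5.

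**Figure D4:**
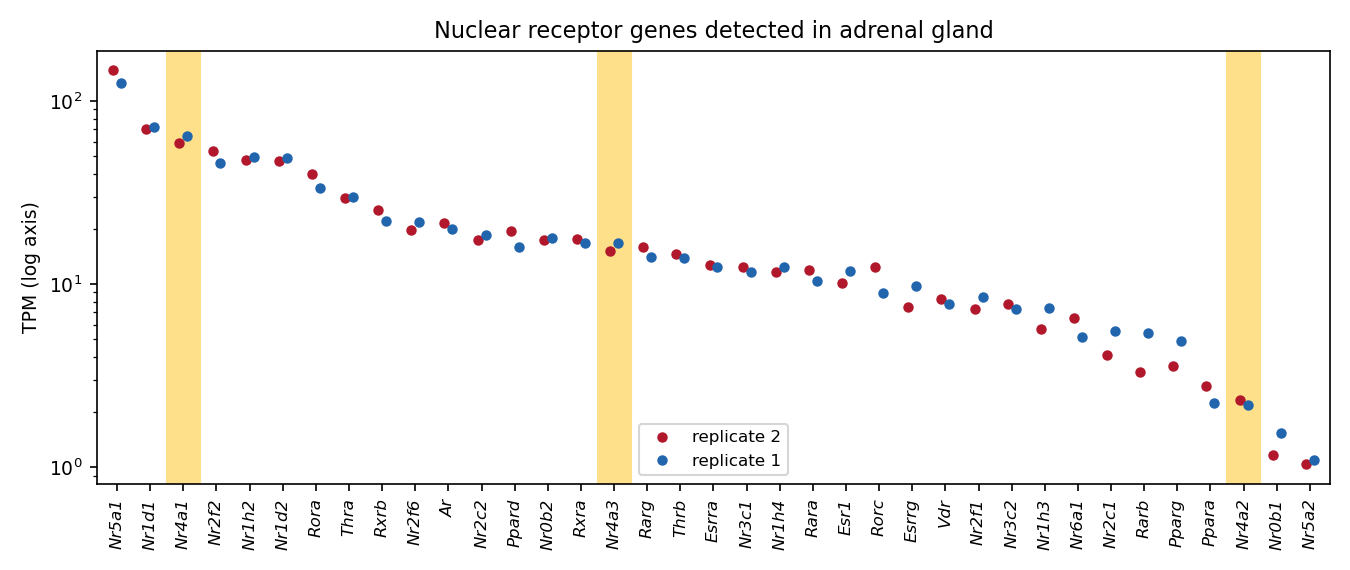
TPM on a log axis of the 37 detected nuclear receptor genes in replicate 2 (red) and replicate 1 (blue), ordered by mean, with the Nr4a genes shaded. Nr4a1 is 3rd at 61.7, Nr4a3 is 16th at 15.9 and Nr4a2 is 35th at 2.27 TPM.

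Of the other 46 receptor genes, 36 had enough counts for a ratio, and their median log2 ratio was -0.05. Of these 3 were at least 25% higher in replicate 2 and 4 were at least 20% lower, shares near those of all genes. Farthest from 0 was the progesterone receptor gene Pgr, with 33 counts in replicate 2 and 17 in replicate 1, a log2 ratio of 1.08 ± 0.43. Next was the retinoic acid receptor gene Rarb, with 174 counts in replicate 2 and 308 in replicate 1, a log2 ratio of -0.68 ± 0.14. Other receptor genes had 23 retained-intron transcripts, from 13 genes, with a median log2 ratio of -0.10. Of these, 3 were 1.5-fold lower and 5 were 1.5-fold higher, against 12.3% of all retained introns in each direction.

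Upstream of the Nr4a genes, all 27 listed genes of cAMP and calcium signalling were detected. The highest were the protein kinase A catalytic genes Prkaca at 77.0 ± 3.07 TPM and Prkacb at 50.7 ± 0.643 TPM. The class IIa histone deacetylase gene Hdac5, whose product holds back MEF2 factors, was at 46.7 ± 6.75 TPM and Mef2d at 39.1 ± 4.44 TPM. By counts 1 of the 27 was at least 25% higher in replicate 2 and 2 were at least 20% lower, against 8.32% and 10.9% of all genes, with a median log2 ratio of -0.03. The lowest was Crem, which encodes the cAMP-inducible repressor ICER among its isoforms, with 565 counts in replicate 2 and 1180 counts in replicate 1, a log2 ratio of -0.92 ± 0.07. Hdac5 followed at -0.41 ± 0.04.

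Immediate early genes, which the same signals induce within minutes, were mostly lower in replicate 2 while Nr4a1 was higher by counts. For the gene as a whole this contrast depends on the unit, since the Nr4a1 log2 ratio was -0.14 in TPM. That of its full-length transcripts was 0.66 in TPM. Of 29 immediate early genes listed, 21 were detected and 26 had enough counts for a ratio. Not detected were Arc, Fosb, Egr2, Fosl1, Npas4 and Egr4, and also Egr3 and Atf3, which passed 1 TPM only in replicate 1. Of the 26, 17 had a ratio below 0, and the median was -0.25, against -0.006 over all 16380 genes. At least 20% lower were 10, against 10.9% of all genes, and at least 25% higher were 5, against 8.32%. Both directions thus held more of the list than of all genes. Past 1.5-fold, 6 were lower and none was higher, where 4.03% and 2.67% of all genes were. Klf4, named after its value was seen, was just short of that limit at 0.58. The AP-1 genes Jun, at 151 TPM in replicate 2 and 173 TPM in replicate 1, Fosl2, at 109 and 114 TPM in replicates 2 and 1, and Jund, at 88.0 and 107 TPM in replicates 2 and 1, were the highest. Per1, a clock gene that cAMP also induces, was at 27.8 TPM in replicate 2 and 21.3 TPM in replicate 1, a log2 count ratio of 0.52 ± 0.05. Egr3 had 49 counts in replicate 2 and 307 in replicate 1, a log2 ratio of -2.49 ± 0.22. Atf3, a stress-induced repressor, had 40 counts in replicate 2 and 131 in replicate 1, a log2 ratio of -1.56 ± 0.26.

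**Figure D5:**
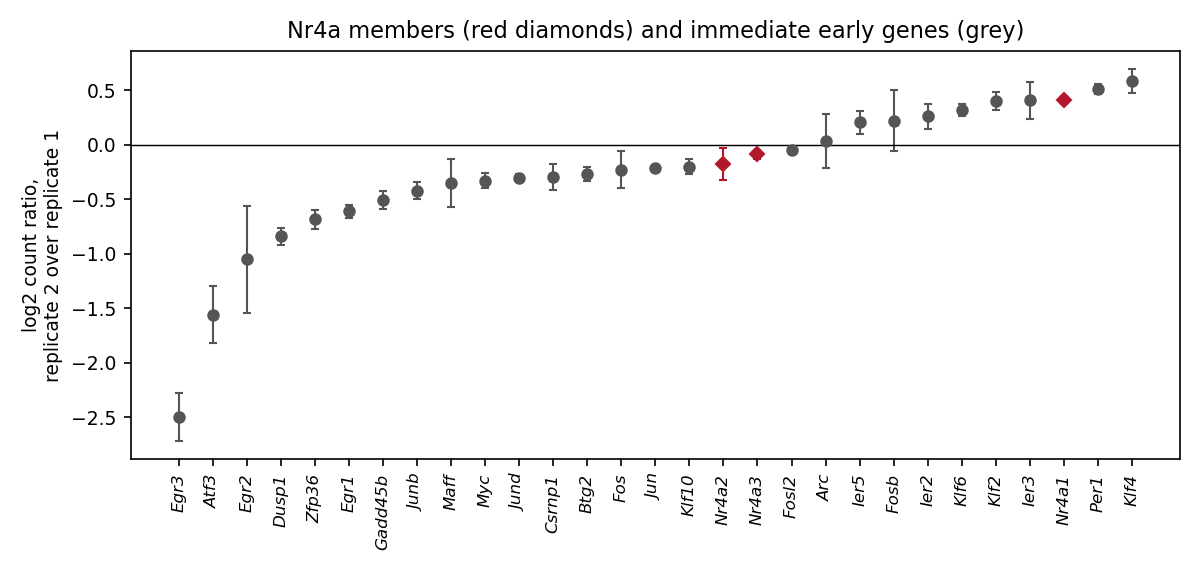
Log2 count ratio of replicate 2 over replicate 1 for the 26 immediate early genes with enough counts (grey circles) and the 3 Nr4a genes (red diamonds), with bars for the counting SE. Egr3 is lowest at -2.49, Nr4a2 and Nr4a3 lie just below 0, and Nr4a1 is at 0.42 beside Per1 at 0.52.

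Of these genes other than the receptors, 5 had retained-intron transcripts with enough counts, 7 transcripts in all, and 6 of the 7 were below 0 with a median log2 ratio of -0.72. Of the 7, 4 were 1.5-fold lower in replicate 2, against 12.3% of all retained introns. Dusp1-203, of a gene for a phosphatase that switches off MAP kinases, had 170 counts in replicate 2 and 488 counts in replicate 1. Egr3-202 had 29.5 counts in replicate 2 and 140 counts in replicate 1. The genes of both were also lower as a whole in replicate 2, Dusp1 at -0.84 and Egr3 at -2.49, whereas the full-length transcripts of Nr4a1 were higher there. Egr3-202 held 60.6% of the Egr3 TPM in replicate 2 and 31.6% in replicate 1. Fosl2-202 and Klf6-202 also held a larger share of their genes in replicate 2. Dusp1-203, Dusp1-204, Gadd45b-202 and Fosl2-203 held a smaller share there, as did Nr4a1-204, at 1.89% in replicate 2 and 21.6% in replicate 1. Dusp1, its transcript and the retained-intron transcripts were named after their values were seen.

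Of 16 genes for partners and coregulators, 15 were detected, with Rxrg the exception. Nr5a1, which shares response elements with Nr4a receptors in steroidogenic promoters, was the highest, and the corepressor genes Trim28, at 98.5 ± 1.47 TPM, and Ncor1, at 88.6 ± 1.78 TPM, were also among the 4 highest. None was at least 25% higher in replicate 2 and 1 was at least 20% lower, against 8.32% and 10.9% of all genes, and the median log2 ratio was -0.01. That 1 was Nr0b1, with 51 counts in replicate 2 and 75 in replicate 1, a log2 ratio of -0.41 ± 0.26. Bcl2, to whose product Nr4a1 can bind outside the nucleus, was at 0.29 ± 0.11.

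Of 17 genes reported elsewhere as Nr4a targets, 13 were detected. The steroidogenic genes led, with Star at 5704 ± 171 TPM, Hsd3b1 at 4646 ± 70.1 TPM, Cyp11a1 at 2808 ± 86.2 TPM and Cyp21a1 at 2617 ± 549 TPM. Pomc, Akr1c18, Slc6a3 and Bdnf were not detected. By counts 1 of 13 was at least 25% higher in replicate 2 and 1 was at least 20% lower, near the 8.32% and 10.9% of all genes, with a median log2 ratio of 0.03. These were Cyp21a1 at 0.41 ± 0.006 and Hsd3b6, a glomerulosa isoform of 3β-hydroxysteroid dehydrogenase, at -0.53 ± 0.03, and both genes have close copies between which reads may be split.

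Markers of other cell types differed between the libraries as well. Summed adipocyte marker TPM was 274 in replicate 2 and 470 in replicate 1, with 5 of 5 markers at least 20% lower by counts. Macrophage markers summed to 169 TPM in replicate 2 and 243 TPM in replicate 1, with 3 of 6 at least 20% lower. Of all genes, 10.9% were at least 20% lower. Most of the macrophage difference came from Lyz2, at 81.4 TPM in replicate 2 and 146 TPM in replicate 1. C1qa and Csf1r had log2 count ratios above 0, at 0.03 and 0.14. Lyz2, C1qa and Csf1r were named after their values were seen. Medulla markers summed to 2289 TPM in replicate 2 and 1981 TPM in replicate 1, with 1 of 5 at least 25% higher by counts and none below 0. Cortex markers differed little, at 10476 TPM in replicate 2 and 10384 TPM in replicate 1, as did endothelial markers, at 181 and 183 TPM in replicates 2 and 1. Glomerulosa markers summed to 602 TPM in replicate 2 and 653 TPM in replicate 1. By counts, 2 of these 5 were at least 20% lower and all 5 had log2 ratios below 0. None of 6 T lymphocyte and none of 4 skeletal muscle markers was detected. The part of these cells in the values of the Nr4a and immediate early genes was not tested.

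By level alone, the protein-coding genes nearest to each member in both libraries, by Euclidean distance of log2(TPM + 0.1), were Arpc4, Atp1b3 and Psmb3 for Nr4a1, Trim33, Zfp330 and Ddhd2 for Nr4a3 and Gm11127, Adig and Rgs7 for Nr4a2. With 2 libraries this likeness is weak: 54 genes lay within 0.1 of Nr4a1, 126 within 0.1 of Nr4a3 and 45 within 0.1 of Nr4a2. The neighbours of Nr4a1 by TPM did not share its counts, since their log2 count ratios ran from -0.17 for Atp1b3 to -0.11 for Arpc4.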

How the data were processed

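Total RNA of 300 ng per library was reduced of ribosomal RNA, made into directional libraries with ERCC spike-ins and mapped to mm10 with GENCODE M21, per the labels. The authors deposited gene and transcript tables with expected counts, TPM and FPKM, and the percent of a gene's TPM that each transcript holds, per the file headers. The deposited TPM interval bounds are per the file headers a signal on the TPM scale, used only to say where the intervals of the libraries overlap. A further deposited transcript table, the second quantifier, holds estimated counts and TPM. Quantifier names are not given in these sources, and columns are named as in RSEM and kallisto output.

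The authors' TPM sums over all 81881 features, small structural RNA included, which lowers every other value. Spike-ins (0.504% of counts in replicate 2 and 0.468% in replicate 1) and 26248 numeric entries that name no gene were left out of the library sizes. Expected counts were rounded, scaled with TMM totals (edgeR 4.0.16, R 4.3.3; factors 1.00 in replicate 2 and 0.997 in replicate 1) and turned into log2 ratios with a prior count of 0.5. Transcript counts were rounded in the same way for their ratios. Standard errors are Poisson and cover counting error only, since reads are not independent molecules. Ratios needed a mean count of at least 20, and quantifiers were compared with 0.1 TPM added. The ratio step was tested on simulated counts. Tables and figures used Python 3.11.15, pandas 2.3.3, numpy 2.4.6 and matplotlib 3.10.9.

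With 1 group of 2 libraries there was no test, and 25% higher or 20% lower, 1.5-fold and 4-fold serve as limits. Sequences came from GENCODE M21 transcripts and RefSeq promoters (GRCm38.p6, the same build as mm10). The 3 members and the 13 gene lists were chosen with earlier results of these data known. The text names the members with all transcripts and their neighbours in rank and level. For each list other than those of cell type markers it names the 4 highest genes, the 2 farthest from 0 by ratio and the genes not detected. 1 gene that this rule takes is not reported here. Other choices are said to be later. Alternatives were other scalings (DESeq2 1.42.0 size factors among them), units, quantifiers, limits and added constants.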

Additional observations from a re-analysis of the deposited data

How the results depend on the processing

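Of 61 alternative values other than those that leave out a library, 44 stayed close to the main value and the other 17 are given here. Scaling TPM over genes outside small structural RNA gave 143 TPM for Nr4a1, 5.23 for Nr4a2 and 36.8 for Nr4a3, and posterior mean TPM gave 2.83 for Nr4a2. The Nr4a1 ratio of 0.42 turned to -0.14 in TPM, -0.15 in FPKM and -0.60 in TPM of the second quantifier, and was 0.20 in counts of the second quantifier and 0.32 with spike-in totals, both under the 25% limit. The Nr4a1 TPM ratio lay at -0.81 from the count ratio in the second quantifier. The Nr4a3 ratio was -0.18 with spike-in totals and -0.26 in TPM of the second quantifier. The Nr4a2 ratio of -0.17 had the opposite sign in TPM, at 0.08, a shift within its 95% counting interval. The ratio of full-length Nr4a1 transcripts, a result added after seeing the data, was 0.41 in both counts and TPM of the second quantifier and 0.54 with spike-in totals, against 0.63. That of Nr4a1-204, added likewise, ran from -3.86 to -3.61. The leading transcript's percent of Nr4a1 was 73.2 over both libraries and 41.9 in the second quantifier. The log2 of gene table over second quantifier for Nr4a2 was 0.029 with 1 TPM added, against 0.040. The cause of these shifts was not tested, apart from the units and transcript lengths given above.

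With 2 libraries, leaving 1 out returns the value of the other, so it is no check of stability: it gave 58.8 to 64.6 TPM for Nr4a1, 2.20 to 2.33 for Nr4a2 and 15.2 to 16.7 for Nr4a3. The leading transcript's percent was 95.2 without replicate 1 and 51.2 without replicate 2. The log2 of gene table over second quantifier was 0.27 without replicate 1 and -0.19 without replicate 2 for Nr4a1, 0.036 to 0.043 for Nr4a2 and 0.017 to 0.14 for Nr4a3, and 37 nuclear receptor genes were detected either way. A ratio between the libraries cannot be had without one of them. No paired analysis was possible because there was 1 group. At the depth of these libraries, transcripts of Nr4a2 with fewer than about 20 counts carry counting errors too large to rank them. Above 20 counts, read assignment limits the ranking as well. Nr4a2-201, Nr4a2-203 and Nr4a2-206 had 0 bases found in no other transcript. Their posterior SDs in replicate 2 were 21.6 on 63.4 counts, 24.4 on 45.3 counts and 14.2 on 42.6 counts.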
